A study of Homo sapiens with 6 samples.

Results

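Of 57116 stretches of the U2OS genome with nascent DNA detected in every library, 47410 were within the width limits used here. In 1596 of these, peaks were shorter by a set factor in both libraries with siRNA against ORCA than in both with a control siRNA. The opposite held in 3648, and pairs that took 1 library of each kind gave 1820 to 3084. The peaks come from nascent-strand sequencing (NS-seq), which isolates short, newly made DNA around replication start sites by size selection and exonuclease digestion. U2OS is a human osteosarcoma cell line. The siORCA group holds 2 libraries of cells transfected with an siRNA against ORCA, and the control group holds 2 libraries of cells transfected with the siRNA gl3, and the labels do not say whether they came from separate cultures. Both groups share the cell line and the transfection, and differ by the siRNA. The series also lists 2 genomic DNA samples, 1 per siRNA, which were not analysed here.

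Replication starts at origins, where the origin recognition complex (ORC) loads the MCM helicase before S phase. ORCA, the product of the gene LRWD1, binds ORC and helps to hold it on chromatin, above all on heterochromatin. A broad NS-seq peak can reflect nascent strands that start at several nearby positions, and a short peak a more confined start. Peak lists of DNA give no measure of ORCA itself, so the knockdown could not be checked.

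The narrower regions were chosen from the peak lists themselves. Peaks of all 4 lists on chromosomes 1 to 22 and X were merged wherever they touched or overlapped, which gave 534833 regions. Of these, 57116 held a peak from every list, and 47410 of those had a merged width of at least 300 and under 2000 bp and are called shared regions here. The peak length of a sample in a region is the sum of its peaks there in bp. A shared region counts as narrower when the smaller of the 2 control lengths is at least 1.5 times the larger of the 2 siORCA lengths. That makes 1596 of 47410 shared regions, or 3.37%. Because siORCA and control lengths chose these regions, the lengths that follow are a description, and they carry no test.

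The lists themselves held 329933 and 198486 peaks on these chromosomes in siORCA 1 and siORCA 2, and 181132 and 235444 in control 1 and control 2. Read counts are not part of them, and depth is therefore unknown. The shortest peak listed was 82 and 103 bp in the siORCA libraries and 106 and 92 bp in the control libraries. The lengths of the shared regions were only loosely reproducible. Pearson correlation of log2 length over the 47410 regions was 0.43 between the 2 siORCA libraries and 0.27 between the 2 control libraries, and 0.26 to 0.43 between a siORCA and a control library. These are correlations across regions called on libraries of unknown depth, and regions are not independent replicates.

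The narrower regions were fewer than the regions that passed the same rule in the opposite direction. The mirror rule, in which the smaller siORCA length is at least 1.5 times the larger control length, was met by 3648 shared regions (7.69%). Pairings that mix the groups also gave many such regions. In 1943 regions control 2 and siORCA 2 were both shorter than control 1 and siORCA 1 by this factor, and in 1898 the reverse held. In 3084 regions control 2 and siORCA 1 were the shorter pair, and in 1820 control 1 and siORCA 2 were.

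With lengths as deposited, the 1596 narrower regions were the smallest of the 6 counts and the 3648 wider ones the largest. The number of narrower regions alone thus does not set siORCA and control apart from mixed pairs of libraries. Both directions together gave 5244 regions for siORCA against control, and 3841 and 4904 for the mixed pairings. The order of the 6 counts depended on scale, since the siORCA peaks were longer across all shared regions. When each length was divided by its library's median over the shared regions, 2263 regions were narrower and 2622 wider in siORCA (4.77% and 5.53%), and the mixed pairings gave 1888 to 2567. Narrower regions made up 30.4% of narrower and wider regions together before this scaling and 46.3% after it. No region could leave the narrower set under that scaling, because both siORCA medians exceed both control medians. Leaving out any 1 library raised the count to between 4581 and 8478, where the rule compares fewer lengths and a region needs a peak in only 3 lists.

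**Figure D1:**
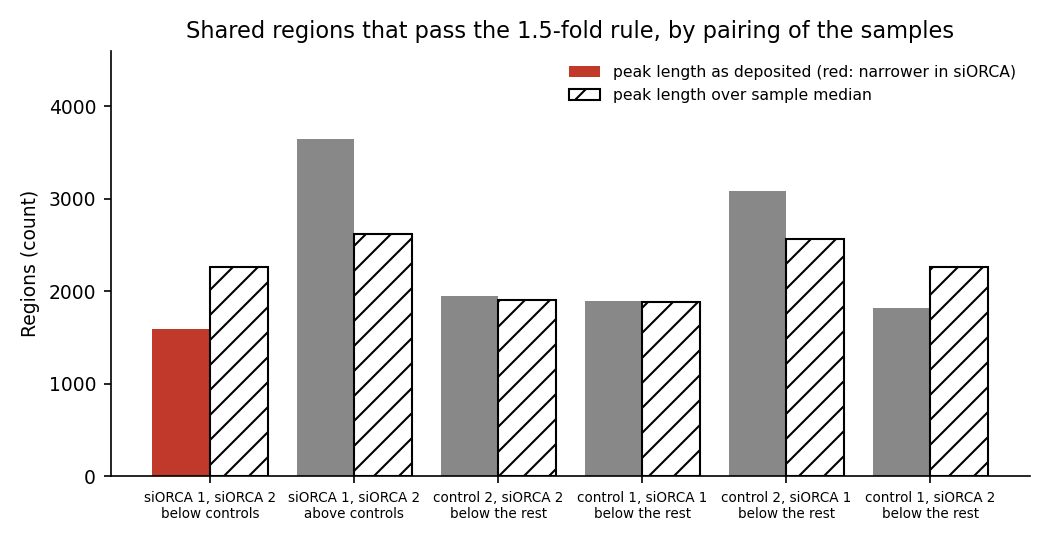
Number of shared regions that pass the 1.5-fold rule (vertical axis, count) for each way of pairing the 4 libraries and each direction; solid bars use peak lengths as deposited and hatched bars lengths divided by the library median. The red bar, 1596 regions narrower in siORCA, is the lowest solid bar, and its hatched partner at 2263 lies within the range of the mixed pairings, 1888 to 2567.

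Over all shared regions, which the contrast did not choose, siORCA peaks were the longer ones. The median peak length was 411 and 432 bp in the siORCA libraries, against 391 and 353 bp in the control libraries. The means of these medians were 421.5 ± 14.8 bp in siORCA and 372.0 ± 26.9 bp in control (SD, n = 2 each), a difference of 49.5 bp. Both siORCA libraries lay above both control libraries, and a two-sided exact permutation test gave p = 0.33, the smallest this design allows. The 2 groups did not overlap in length in 17002 regions, with siORCA below control in 5458 (11.5%) and above it in 11544 (24.3%). The mixed pairings gave 14231 and 15955 such regions. Fitted region by region with limma on log2 length over all 47410 regions, 0 regions were lower and 0 were higher in siORCA after Benjamini-Hochberg adjustment, with a smallest adjusted p of 0.800. At an unadjusted p under 0.05 the same limma fit had 854 regions lower (1.8%) and 2080 higher (4.39%).

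Within the narrower regions the peaks of both siORCA libraries were about equally short. The median length was 181 bp in siORCA 1 and 183 bp in siORCA 2, against 561.5 bp in control 1 and 579 bp in control 2. The interquartile range ran from 129 to 279 bp in siORCA 1 and from 138 to 280 bp in siORCA 2, against 408.75 to 801.25 bp in control 1 and 408 to 830 bp in control 2. The highest siORCA length in any narrower region was 1115 bp, and the lowest control length was 162 bp. Summed over the 1596 regions, siORCA peaks covered 360 and 372 kb, against 1006 and 1057 kb of control peaks. The median of log2 siORCA over control length was -1.48 in the narrower regions, where it was 0.16 over all shared regions.

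**Figure D2:**
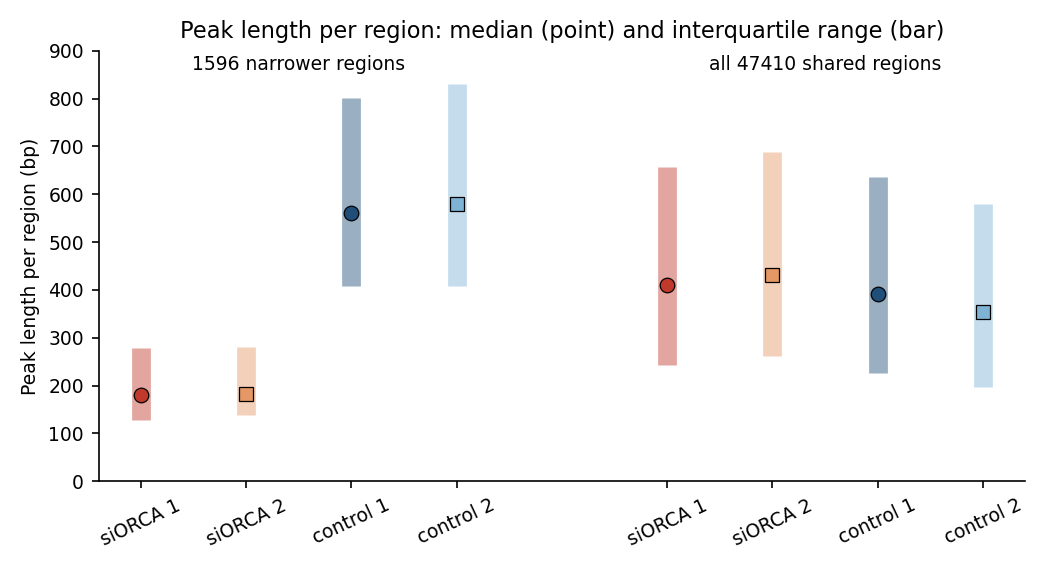
Peak length per region in bp (vertical axis) for each library, over the narrower regions on the left and all shared regions on the right; points are medians and bars the interquartile range. Medians of the narrower regions are 181 and 183 bp in siORCA and 561.5 and 579 bp in control, whereas over all shared regions the siORCA medians, 411 and 432 bp, lie above the control medians, 391 and 353 bp.

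Replicates were closer to each other inside the narrower regions than elsewhere, which the rule itself favours because it asks for a gap between the groups. The median difference between the 2 siORCA libraries was 0.35 on the log2 scale in narrower regions and 0.57 over all shared regions. Between the 2 control libraries it was 0.37 and 0.75.

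The ratio of the smaller control to the larger siORCA length ran from 1.5 to 9.82, with a median of 1.92. It was at least 2 in 718 regions, at least 3 in 188, at least 4 in 47 and at least 5 in 12. The threshold cuts through a continuum, as 273 shared regions had a ratio of 1.5 to under 1.6 and 328 had one of 1.4 to under 1.5. Just inside lay a region on chromosome 5 from 139500211 to 139500583 (T2T-CHM13, as all positions here), with 150 and 190 bp in siORCA and 354 and 285 bp in control. The next were on chromosome 2 from 47783588 to 47783917, with 115 and 136 bp in siORCA and 204 and 330 bp in control, and on chromosome 7 from 93073201 to 93073513, with 91 and 148 bp in siORCA and 222 and 313 bp in control. All 3 had a ratio of exactly 1.5 and are short regions.

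Just outside, at ratios of 1.498 to 1.499, lay longer ones. On chromosome 15 from 22957473 to 22959282 the peaks measured 599 and 523 bp in siORCA and 898 and 1447 bp in control. On chromosome 19 from 4733359 to 4733953 they measured 106 and 305 bp in siORCA and 457 and 490 bp in control, and on chromosome 12 from 52304815 to 52306089 they measured 297 and 143 bp in siORCA and 1255 and 445 bp in control. In all 3 the groups did not overlap, but 1 library of a group was far from the other in at least 1 group.

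The largest contrast was on chromosome 9 from 125740017 to 125741238. Its peaks were 101 and 107 bp long in siORCA, against 1051 and 1222 bp in control, a ratio of 9.82. Both siORCA peaks were close to the shortest peaks of their lists, and both lay inside both control peaks. The next largest contrasts lay on chromosome 5. From 75121760 to 75122659 the lengths were 116 and 107 bp in siORCA and 885 and 859 bp in control (ratio 7.41), and from 140329228 to 140330872 they were 141 and 126 bp in siORCA and 1039 and 1627 bp in control (ratio 7.37). In the first of these the control libraries were near equal, and in the second control 2 was the longer by far.

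Chromosome 2 held 3 of the 10 largest ratios. From 127575804 to 127576532 the peaks measured 98 and 117 bp in siORCA and 672 and 705 bp in control (ratio 5.74). From 187469166 to 187470749 they measured 116 and 113 bp in siORCA and 642 and 1584 bp in control (ratio 5.53), so that control 2 covered the whole region and control 1 less of it. From 8518934 to 8519829 they measured 89 and 143 bp in siORCA and 830 and 766 bp in control (ratio 5.36). In these regions, too, no siORCA library had more than 143 bp of peak.

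Chromosome 1 held another 2 of the 10. From 10600015 to 10601225 the peaks measured 97 and 106 bp in siORCA and 599 and 664 bp in control (ratio 5.65). From 1814640 to 1815685 they measured 143 and 163 bp in siORCA and 1027 and 915 bp in control (ratio 5.61). The last 2 of the 10 lay on chromosome 5 from 142047373 to 142048282, with 107 and 105 bp in siORCA and 695 and 588 bp in control (ratio 5.50), and on chromosome 6 from 43493821 to 43494950, with 119 and 114 bp in siORCA and 631 and 1130 bp in control (ratio 5.30). The siORCA libraries differed by at most 54 bp in these 10 regions.

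**Figure D3:**
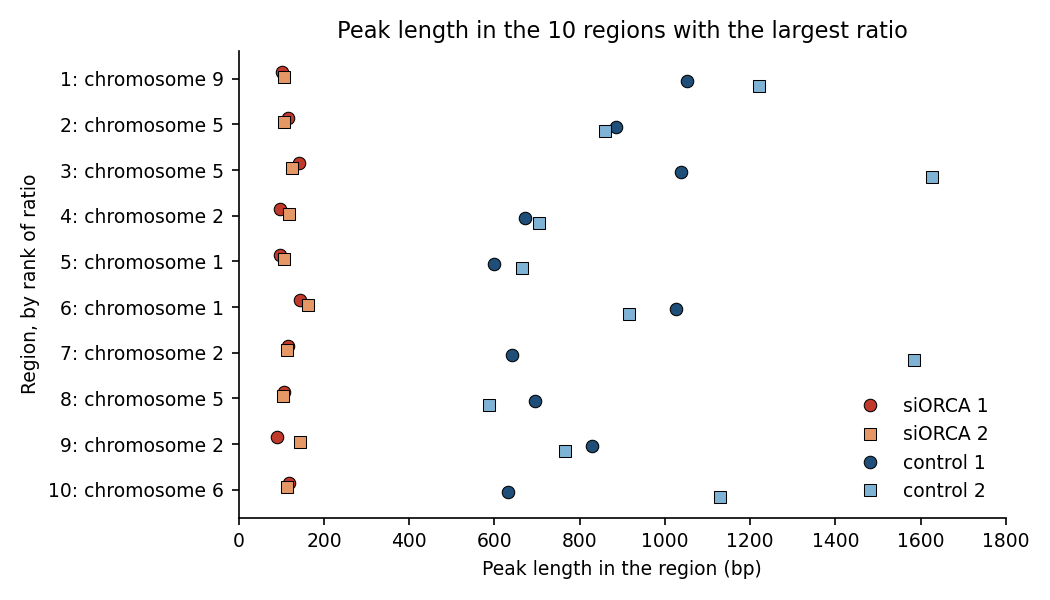
Peak length in bp (horizontal axis) of each library in the 10 regions with the largest ratio of the smaller control to the larger siORCA length, from 9.82 at the top to 5.30 at the bottom; each point is 1 library. The siORCA points sit between 89 and 163 bp and the control points between 588 and 1627 bp.

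Short siORCA peaks were a common form of narrowing, but not the only one. In siORCA 1, 583 of the 1596 narrower regions (36.5%) carried under 150 bp of peak, and in siORCA 2, 514 (32.2%). No narrower region (0) could do so in either control library, given the rule and the shortest siORCA 2 peak of 103 bp. Among the 3648 regions that met the mirror rule, under 150 bp of peak was found in 28.3% in control 1 and 36.7% in control 2. Short peaks in the narrower group were thus found in both directions. Both siORCA libraries were under 150 bp in 294 regions (18.4%), where over all shared regions this was so in 712 of 47410. At the other end, 219 narrower regions (13.7%) kept at least 300 bp of peak in both siORCA libraries, against 51.4% of all shared regions. In 102 narrower regions (6.39%) both control libraries had at least 1000 bp, against 2.09% of all shared regions. These differences from all shared regions follow in part from the rule, which asks for short siORCA and long control lengths.

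The regions with the longest control peaks kept at least 300 bp in both siORCA libraries, with 1 exception on chromosome 2. On chromosome 19 from 18927928 to 18929790 the peaks measured 728 and 332 bp in siORCA and 1852 and 1813 bp in control, which was also the largest gap in bp (1085 bp between the larger siORCA and the smaller control length). On chromosome 19 from 393668 to 395641, close to the chromosome end, they measured 1115 and 1078 bp in siORCA and 1725 and 1974 bp in control. On chromosome 5 from 968303 to 969934 they measured 946 and 958 bp in siORCA and 1630 and 1565 bp in control. In these 2 the siORCA libraries differed by 37 and 12 bp, whereas in the first siORCA 1 had more than siORCA 2.

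The next longest were on chromosome 2 from 2759677 to 2761432, with 195 and 618 bp in siORCA and 1520 and 1583 bp in control, and on chromosome 21 from 43904502 to 43906485, with 676 and 631 bp in siORCA and 1493 and 1547 bp in control. When only peaks past a −log10 q of 3 were summed, the order in the region on chromosome 21 turned, to a ratio of 0.72. Another large gap in bp, 941 bp, lay on chromosome 1 from 46404957 to 46406537, with 109 and 299 bp in siORCA and 1444 and 1240 bp in control.

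In most narrower regions the siORCA peaks lay under control peaks. In 966 narrower regions (60.5%) every base under a siORCA peak was also under a control peak, whereas this was so in 18.9% of all shared regions. A median of 65.7% of the bases under a control peak had no siORCA peak over them, against 9.83% in all shared regions. The span of a library in a region runs from the start of its first peak to the end of its last. Both siORCA spans lay wholly inside both control spans in 280 narrower regions (17.5%), where this was so in 1.48% of all shared regions. In the mirror set both control spans lay wholly inside both siORCA spans in 1240 of 3648 regions (34.0%). These shares follow in part from the rule, which asks for short siORCA and long control peaks.

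The siORCA peaks were not concentrated at the middle of the region. At the centre of the merged region 26.6% and 28.9% of the narrower regions had a siORCA 1 and a siORCA 2 peak, against 89.2% and 88.2% with a control 1 and a control 2 peak. At 250 bp to the left of the centre the shares were 22.3% and 20.9% in siORCA and 59.8% and 61.3% in control. The middle of a siORCA span lay at a median of 0.47 and 0.48 of the way from the centre of the control stretch to its edge. In the mirror set the short control spans lay at 0.45 and 0.47 of the way from the centre of the siORCA stretch to its edge. Off-centre short spans were thus found in both sets.

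**Figure D4:**
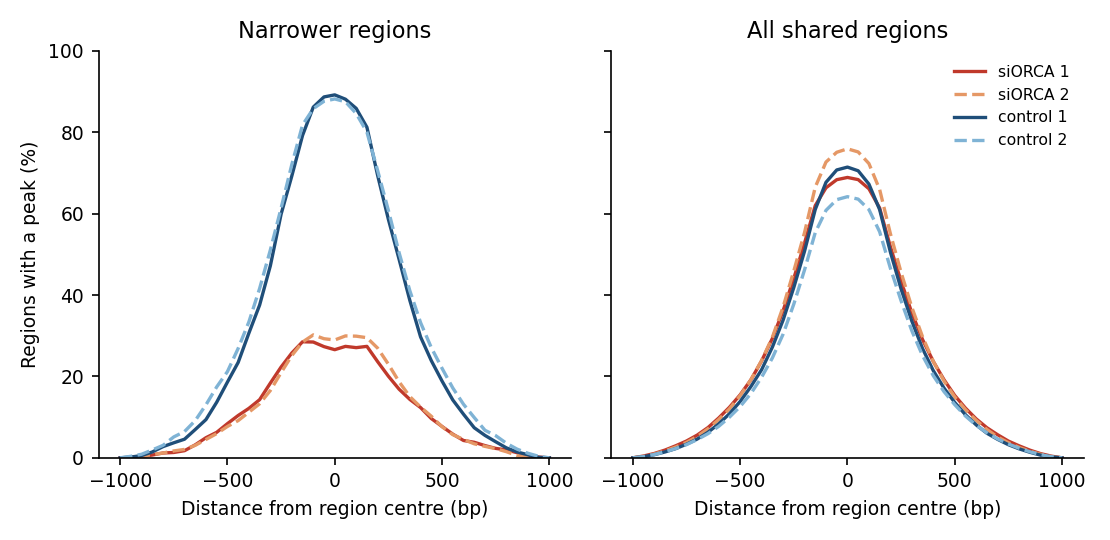
Share of regions with a peak (vertical axis, %) against distance from the centre of the merged region (horizontal axis, bp) in each library, for the narrower regions on the left and all shared regions on the right. At the centre of the narrower regions the siORCA libraries reach 26.6% and 28.9% and the control libraries 89.2% and 88.2%, while over all shared regions they reach 68.9% and 75.9% in siORCA and 71.4% and 64.2% in control.

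The spans of the 2 siORCA libraries, each from first to last peak, overlapped by at least 1 bp in 1426 narrower regions (89.3%). This was a lower share than the 98.6% of all shared regions. Their midpoints were a median of 40 bp apart, against 70.5 bp over all shared regions. Both differences follow in part from the rule, which picks regions with short siORCA peaks. In the mirror set the short control spans overlapped in 85.4% of 3648 regions, with midpoints 63 bp apart. The gap between the edge of the control stretch and the nearest siORCA peak was 161.5 bp on the left and 156.5 bp on the right (medians), and the sides were thus alike.

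Narrowing was seldom a matter of one wide peak falling into several. A single peak filled the sample's share of the region in 88.4% and 93.0% of narrower regions in siORCA 1 and siORCA 2, and in 96.4% and 95.2% in control 1 and control 2. Over all shared regions the shares were 89.1% and 95.2% in siORCA and 95.8% and 93.4% in control. The 5 regions with the longest control peaks differed. That on chromosome 19 from 18927928 had 3 and 2 siORCA peaks and that on chromosome 5 had 2 and 2, against 1 in each control library. Those on chromosome 19 from 393668 and on chromosome 2 had 2 peaks in 1 siORCA library and 1 in each other library. That on chromosome 21 had 2 in every library. Within 1 kb beyond the edges of the narrower regions, further peaks were listed at 40.0% and 31.1% of them in siORCA and at 27.3% and 32.1% in control. Around all shared regions these were 45.3% and 34.6% in siORCA and 29.7% and 32.9% in control, and the narrower regions thus had no higher share of outlying siORCA peaks.

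The narrower regions were weaker than the typical shared region in each of the 4 lists, and least so in control 2. The lengths of these same peaks chose the regions, so their strength is a description and carries no test. Each deposited peak carries the authors' fold enrichment over background, used here to rank regions within a list. Ranked by the highest fold in the region among the 47410 shared regions, the narrower regions had a median percentile of 34.6 in siORCA 1 and 39.0 in siORCA 2, and of 36.0 in control 1 and 46.3 in control 2. The median fold behind these ranks was 5.44 and 4.78 in siORCA and 4.08 and 4.59 in control, where over all shared regions it was 6.66 and 5.24 in siORCA and 4.51 and 4.72 in control. Folds from different lists are given side by side only, since they depend on each list's unknown depth.

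Narrower regions made up a larger share of weak than of strong shared regions, and so did the mirror set, by a smaller margin. These shares, too, are a description, since the lengths of the same peaks chose both sets. When the 47410 regions were put in order of their mean percentile over the 4 lists and divided into 4 equal parts, 4.91% of the weakest part (582 regions) and 2.19% of the strongest (260 regions) were narrower. The mirror set held 8.26% and 6.47% of these parts. Every list had a peak past a −log10 q of 3 at 484 narrower regions (30.3%), against 41.8% of all shared regions. Of those 484, 448 still met the 1.5-fold rule when only such peaks were summed. Regions chosen by the rule mostly hold a single peak per library, so this share was largely fixed in advance. When regions were rebuilt from such peaks alone, 487 of 19909 (2.45%) were narrower, and the mixed pairings gave 3.17% to 5.56%.

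A few narrower regions were strong in every list, and the 5 with the highest minimum fold over the 4 lists are given as examples. The first was on chromosome 7 from 30832329 to 30833084, at 37.7 and 29.2-fold in siORCA and 27.2 and 19.5-fold in control, with lengths of 286 and 293 bp in siORCA and 746 and 693 bp in control. On chromosome 10 from 133070859 to 133071960 the folds were 37.8 and 28.2 in siORCA and 28.3 and 18.9 in control, with 358 and 415 bp in siORCA and 775 and 899 bp in control. Here both siORCA peaks lay inside both control peaks, and in both regions the replicates of each group were close in length.

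On chromosome 1 from 30113352 to 30114107 the lengths were 371 and 338 bp in siORCA and 666 and 737 bp in control, at folds of 18.2 and 40.2 in siORCA and 29.2 and 28.4 in control. Chromosome 16 held the last 2 of these 5. From 91242279 to 91242985 the lengths were 244 and 362 bp in siORCA and 609 and 614 bp in control, at 206 and 32.2-fold in siORCA and 16.0 and 19.7-fold in control. From 92770881 to 92772564 they were 651 and 680 bp in siORCA and 1139 and 1152 bp in control, at 31.3 and 15.3-fold in siORCA and 14.9 and 18.6-fold in control. The strong regions thus kept at least 244 bp of siORCA peak, unlike the regions with the largest ratios, whose folds were between 3.24 and 5.90 in siORCA and between 3.34 and 5.89 in control.

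By merged width the narrower regions were close to the shared regions as a whole, with medians of 782 and 723 bp. Narrower regions made up 2.27% of shared regions of 300 to under 500 bp, 3.67% of those of 500 to under 1000 bp, 3.98% of those of 1000 to under 1500 bp and 3.41% of the widest. The mirror set was lowest in the same class, at 5.59%, and 7.91%, 9.26% and 8.88% in the wider ones.

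Narrower regions were found on every chromosome examined, from 16 on chromosome X to 174 on chromosome 1, largely in step with the number of shared regions. Their share was highest on chromosome 4, at 5.13% (46 of 897 shared regions), followed by chromosome 14 at 4.39% (63 of 1434) and chromosome X at 4.20% (16 of 381). It was lowest on chromosome 8, at 2.12% (47 of 2222), and chromosome 22, at 2.31% (56 of 2424). The remaining chromosomes lay between 2.78% (chromosome 17) and 4.18% (chromosome 11). Relative to the mirror set, there were 0.780 narrower regions per wider one on chromosome 4 and 0.292 on chromosome 8.

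**Figure D5:**
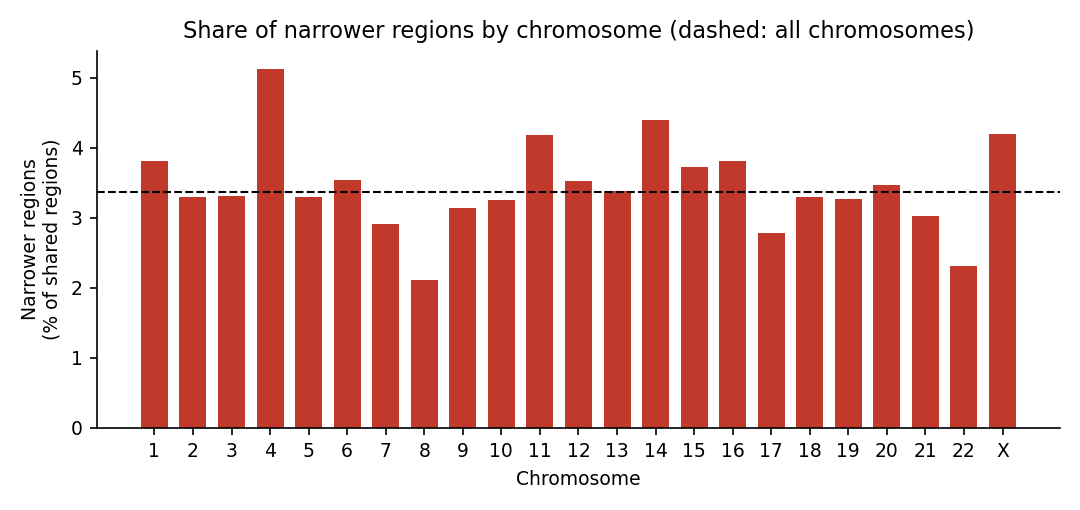
Narrower regions as a percentage of the shared regions on each chromosome (vertical axis); the dashed line marks 3.37%, the value over all chromosomes. Chromosome 4 is highest at 5.13% and chromosome 8 lowest at 2.12%.

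Chromosome ends held about their share. Within 1 Mb of the first base or the last listed peak of a chromosome lay 62 narrower regions (3.88% of them), where 3.97% of all shared regions lie. Within 5 Mb the shares were 18.0% of narrower and 19.5% of shared regions.

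Narrower regions were spread over much of the genome. They fell into 948 of the 2543 windows of 1 Mb that held a shared region, and 13 windows held 5 or more. The fullest window, chosen after its values were seen, was the first megabase of chromosome 16, with 10 narrower regions among 88 shared ones and 10 in the mirror set. The window of chromosome 9 from 148 to 149 Mb held 8 narrower among 124 shared regions, with 11 in the mirror set. The window of chromosome 15 from 87 to 88 Mb held 7 narrower among 54 shared regions, with 3 in the mirror set. The nearest other narrower region was a median of 286 kb away, and 66 of the 1596 had one within 10 kb and 429 (26.9%) within 100 kb.

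Shared regions next to a narrower one had lengths close to those of shared regions in general. A shared region lay within 50 kb of 1384 narrower regions (86.7%), and that neighbour was itself narrower in 54 cases (3.90%), against 3.25% around shared regions in general. Both siORCA lengths were below both control lengths in 12.5% of these neighbours, against 11.2% in general and 11.5% of all shared regions. The median log2 ratio of siORCA over control length in the neighbours was 0.12, against 0.17 in general. The nearest shared region was a median of 6.54 kb from a narrower region, against 5.24 kb from shared regions in general.

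Genes and bases of the T2T-CHM13 assembly were not used here, so the regions are given by position, with no gene names, gene classes or sequence features.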

How the data were processed

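NS-seq peak lists of 2 siORCA and 2 control libraries were analysed. BWA, SAMtools and MACS2 were used on T2T-CHM13, per the submitters' processing notes. The sources used here do not give their versions, settings or background sample. The authors deposited 1 list per library, with peak positions, a score (not used), a fold enrichment as a linear ratio, and −log10 p and −log10 q values. The files have no header, so columns were read in broadPeak order.

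From these, peaks were merged and summed per region as described in the report (Python 3.11.15, pandas 2.3.3, numpy 2.4.6). Region lengths were fitted with limma 3.58.1 in R 4.3.3 (lmFit, eBayes with trend, Benjamini-Hochberg, threshold 0.05). The merging was checked on a few made-up intervals. The fit was checked on simulated data, where it had to pass only at a residual spread well below the real one. Recovery at the real spread is not given here, so the absence of limma calls does not show that lengths were equal. For library medians the exact permutation test was two-sided. Where replicates are not separate cultures, p-values reflect technical spread alone.

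Named regions are the 10 largest ratios, the 5 longest control peaks, the 5 highest minimum folds, the 3 largest gaps in bp and 3 on either side of the threshold, with chromosome 8 left out. The regions and rules were chosen with earlier results of these data known. Gene lists and sequence features were planned but not run, since no annotation of this build was used here. Alternatives were stricter lists, lists shortened to equal covered length, other ratios, gaps of 200 bp merged, widths under 5000 bp, median scaling, the widest peak, the replicate block and each library left out.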

Additional observations from a re-analysis of the deposited data

How the results depend on the processing

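The number of narrower regions depends on how the rule is set. It was 487 of 19909 (2.45%) with peaks past a −log10 q of 3 (the strict list), against 1596 of 47410 (3.37%). It was 2658 (5.61%) at the lower of the other ratios tried and 718 (1.51%) at a ratio of 2. It was 4581 without siORCA 1, 6976 without siORCA 2, 8478 without control 1 and 8368 without control 2, where the remaining library alone sets its group's bound and 50707 to 61414 regions are eligible. It stayed within 1.5 times of 1596 with lists shortened to equal covered length (1161, 3.07%) and gaps merged (1627, 3.39%). The same held with wider regions allowed (1632, 3.29%), the widest peak (1725, 3.64%) and median scaling (2263, 4.77%). The wider regions outnumbered the narrower ones in each of these settings, by 1.16 to 2.99 times. The median log2 ratio of siORCA over control length in the narrower regions was -1.66 with median scaling, -1.30 in the 484 regions that keep strict peaks in all lists, and -1.48 to -1.41 with 1 library left out (chosen after seeing the data). The regions were those chosen with all 4 libraries, so scaling or leaving out a library could not bring this value to 0. Over all shared regions siORCA medians exceeded control medians by 20.5 to 68.5 bp in the settings compared. These were stricter lists, equal covered length, gaps merged, wider regions allowed and each library left out. Median scaling sets the library medians equal, so it has no such value. With all 4 libraries, limma called 0 regions in every setting fitted. At an unadjusted p under 0.05 these limma fits had 1354 to 3049 regions, or 4.92% to 6.8% of those tested. As a replicate block, the number shared by a siORCA and a control library gave 2612 narrower regions (5.51%) and 5434 wider ones (11.5%). It also gave 0 limma calls and a difference of 49.5 bp (exact permutation p = 0.5, the smallest for 2 pairs). Same-numbered libraries did not deviate together (Pearson r = -0.04 over 47410 regions). Of the 27 named regions, 14 lacked a peak in at least 1 of the 4 strict lists. In at least 1 of the 4 shortened lists 8 lacked one. The region on chromosome 21 reversed, to 0.72, in the strict list, and the cause was not tested. Depth is unknown, so the lists' detection limits cannot be compared.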

Other observations

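Shared regions wider than those described above were also examined. Of 2182 regions of 2000 to under 5000 bp with a peak in all 4 lists, 36 (1.65%) met the narrower rule and 181 (8.30%) the mirror rule. In the 36, median peak length was 516.5 and 589.5 bp in siORCA 1 and siORCA 2, against 1512.5 and 1837.5 bp in control 1 and control 2. Over all 2182 it was 1575 and 1574 bp in siORCA, against 1398 and 1228 bp in control.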
